A study of Homo sapiens with 9 samples.

Results

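The genes described here encode proteins of the red cell surface and of the skeleton beneath it: the glycophorins GYPB, GYPC and GYPE, the Rh-associated glycoprotein RHAG, the skeleton proteins SPTB, ANK1 and EPB41, and the erythropoietin receptor EPOR. They were taken by symbol from the deposited count table, which held 8 of the 8 among 59653 genes, and 8 of 8 were among the 15213 genes with enough reads to be tested. K-562 cells, an established line from a human chronic myeloid leukaemia, transcribe many erythroid genes. All 9 libraries came from K-562 cells whose genotype the labels give as B2M tdTomato (tdTomato is a red fluorescent protein). The mock group had 3 libraries. In the full-length group, also of 3 libraries, a tripartite ETR, which fuses effector domains to dCas9, was delivered as mRNA by nucleofection with a gRNA of full length for B2M, and in the 16-nt group of 3 libraries the same ETR came with a gRNA of 16 nt. dCas9 binds DNA at the site of its gRNA without cutting it, and B2M encodes the light chain of MHC class I molecules. Nothing in the labels states the content of the mock treatment, the time from nucleofection to RNA extraction, or whether replicates came from separate cultures. The spread behind the p-values is therefore that of these libraries and may be technical, and nucleofection and ETR cannot be told apart if mock cells were not nucleofected.

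The red cell membrane is a lipid bilayer tied to a meshwork of spectrin and actin. Spectrin is a rod built of alpha and beta chains, ankyrin links its beta chain to membrane complexes that hold band 3 and the Rh proteins, and protein 4.1 links the meshwork to glycophorin C. Glycophorins are heavily sialylated surface proteins that carry blood group antigens, and the erythropoietin receptor signals through the kinase JAK2 for survival and division of erythroid precursors. K-562 cells are a common laboratory model of early erythroid transcription, and GATA1, a factor that binds GATA words in DNA, drives many genes of this kind.

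GYPB and GYPE lie on the minus strand of chromosome 4, at chr4:143996104-144019380 and chr4:143870864-143905563 of GRCh38, and arose by gene duplication. Their upstream sequences are shown because the pair shares nearly the same letters there, and those of RHAG and EPOR because they had the highest and the lowest level per length. GYPE exceeded GYPB 4.3-fold per length over the 9 libraries, but only 1.4-fold with the lengths of their longest coding transcripts. Sequence shared with other genes also leaves GYPB counts uncertain, as described below. Each line is the 250 bases before the most upstream RefSeq start site (GRCh38.p14), read 5′ to 3′ on the gene's strand. The windows are chr4:144019381-144019630 for GYPB, chr4:143905560-143905809 for GYPE, chr6:49636840-49637089 for RHAG and chr19:11384315-11384564 for EPOR, all on the minus strand. In the GYPB and GYPE lines capitals mark the bases that differ where the 2 windows align, and in the RHAG and EPOR lines they mark GATA words.
GYPB: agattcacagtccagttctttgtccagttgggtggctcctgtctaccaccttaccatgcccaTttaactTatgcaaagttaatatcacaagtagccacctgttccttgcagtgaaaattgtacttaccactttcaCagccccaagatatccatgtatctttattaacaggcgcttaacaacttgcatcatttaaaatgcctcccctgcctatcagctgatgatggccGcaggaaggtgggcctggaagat
GYPE: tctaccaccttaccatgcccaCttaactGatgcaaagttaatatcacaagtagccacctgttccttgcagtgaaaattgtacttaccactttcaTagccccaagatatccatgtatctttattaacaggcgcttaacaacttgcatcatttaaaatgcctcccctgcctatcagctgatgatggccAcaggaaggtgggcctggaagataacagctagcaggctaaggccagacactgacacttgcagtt
RHAG: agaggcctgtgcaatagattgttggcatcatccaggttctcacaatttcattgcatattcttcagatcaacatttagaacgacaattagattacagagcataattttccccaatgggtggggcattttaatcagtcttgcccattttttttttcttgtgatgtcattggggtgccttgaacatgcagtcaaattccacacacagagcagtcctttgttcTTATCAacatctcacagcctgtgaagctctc
EPOR: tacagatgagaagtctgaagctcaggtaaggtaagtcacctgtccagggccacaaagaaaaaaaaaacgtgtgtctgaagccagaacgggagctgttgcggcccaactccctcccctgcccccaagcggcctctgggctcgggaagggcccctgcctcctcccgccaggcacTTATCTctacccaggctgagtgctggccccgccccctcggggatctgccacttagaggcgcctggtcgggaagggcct
The GYPB and GYPE windows aligned over 209 bases without a gap, of which 205 were identical (98.1%) and 4 differed. GATA words were searched on both strands, as AGATAA and its variant AGATAG with another last letter, and likewise as TGATAA and its variant TGATAG. A match stood in 7 of the 7 genes searched at their most upstream start site, and in 8 of 10 windows when every listed start site was used, while 22.3% of 35116 RefSeq windows of the same length held one. The duplicated genes GYPB and GYPE share the match CTATCA at the same place in their aligned stretch, so the 7 genes are not independent. RHAG had its match 31 to 26 bases before the start site and EPOR 78 to 73 bases before it. A CACCC-type word, the kind that erythroid Krüppel-like factors bind, was searched as CCNCNCCC on both strands, where single matches can overlap each other. It stood in 5 of the 7 genes, which did not include GYPB and GYPE, and in 53.4% of all windows. Matches are descriptions of the letters and not evidence of binding, and the upstream sequence of ANK1 was not analysed here.

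The other genes lie at chr2:126656133-126696667 (GYPC, plus strand), chr6:49605175-49636839 (RHAG, minus strand), chr14:64746283-64879907 (SPTB, minus strand), chr1:28887091-29120046 (EPB41, plus strand) and chr19:11377207-11384342 (EPOR, minus strand), and ANK1 lies on chromosome 8. Exons of SPTB overlapped those of the oppositely oriented PLEKHG3 over 3408 of 14796 bases, those of EPB41 overlapped TMEM200B over 618 of 19993 bases, and ANK1 and GYPB overlapped opposite noncoding genes over 842 and 151 bases. No source used here states the strand setting, so reads in these stretches cannot be assigned to 1 strand. Of the 50-base windows in annotated GYPB transcripts, 12.7% also occurred in transcripts of another gene, and 1.15% of GYPE windows did. At 100 bases the shares were 3.51% for GYPB and 0% for GYPE. These windows pool all annotated transcripts, 17 for GYPB, while the longest coding GYPB transcript has 521 bases. The share within that transcript was not computed, so GYPB counts, and ratios that use them, carry an uncertainty of unknown size from copies.

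Library totals ranged from 23763529 to 33260228 counts. B2M went with the labels, at 139 ± 7.11 CPM (deposited counts scaled by TMM to a common library size; SD, n = 3) in mock, 9.71 ± 0.977 CPM in the full-length group and 19.2 ± 2.96 CPM in the 16-nt group. On the first principal component, with 33.1% of the variance, the replicate 3 libraries of the full-length and 16-nt groups lay at 30.7 and 26.9 and the other 7 between -19.1 and 6.84. Some libraries were closer to one of another group than to any of their own. Chi-square per degree of freedom was taken over genes averaging 10 or more counts. By this measure pairs within a group differed by 12 to 31.2. Full-length replicate 3 and 16-nt replicate 3 differed by 3.03, and mock replicate 2 and 16-nt replicate 1 by 3.25. Mock replicate 1 and full-length replicate 1 differed by 4.51. The labels call the cells lymphoblasts: 12 of 12 erythroid markers such as globins and GATA1 were measured, with 1620 to 2160 CPM in sum, and 3 of 12 lymphocyte markers, with 7.16 to 8.92 CPM in sum and MS4A1 at 0 in all 9 libraries. Summed markers were 0.40 to 0.657 CPM in mock, 0.841 to 0.894 CPM in the full-length group and 0.775 to 1.56 CPM in the 16-nt group for monocytes and granulocytes (1 of 10 measured, S100A8 and S100A9 at 0). For megakaryocytes they were 10.2 to 10.6, 9.22 to 12.5 and 8.92 to 12.9 CPM (1 of 9 measured, GP1BA and GP1BB at 0), and for fibroblasts, endothelium and epithelium 322 to 396, 341 to 370 and 333 to 397 CPM (4 of 11 tested, KDR at 0). Nearly all of the last sum came from the epithelial genes KRT8, KRT18 and EPCAM, at 183 ± 17.8, 137 ± 19.3 and 42.1 ± 2.87 CPM in mock (SD, n = 3), while the fibroblast gene COL1A1 stood at 2.68 ± 0.671 CPM and the endothelial genes PECAM1 and CDH5 at or near 0. These are bulk libraries, in which fewer cells of a type and less RNA per cell cannot be told apart.

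RHAG had the highest level per length, followed by GYPC, and GYPB and EPOR had the lowest. As RPKM (CPM divided by the kilobases of annotated exon), RHAG stood at 184 ± 23.8, GYPC at 87.2 ± 7.71, SPTB at 38.2 ± 2.95 and GYPE at 36.5 ± 4.86 over the 9 libraries (SD, n = 9). EPB41 stood at 26.2 ± 1.23, ANK1 at 19.9 ± 1.15, GYPB at 8.52 ± 0.719 and EPOR at 8.02 ± 0.709 RPKM (SD, n = 9). RHAG thus lay above 98.9% of tested genes and EPOR above 66.6%. RHAG exceeded GYPC 2.11-fold and GYPC exceeded SPTB 2.28-fold, each in 9 of 9 libraries with ranges that did not overlap. SPTB and GYPE, neighbours in the order, overlapped, and SPTB was the higher in 5 of 9 libraries. GYPE and EPB41 also overlapped in range, although GYPE was higher in 9 of 9 libraries. EPB41 exceeded ANK1 1.32-fold and ANK1 exceeded GYPB 2.34-fold with ranges that did not overlap, whereas GYPB and EPOR overlapped. The middle of this order depended on the length used. EPB41 has 19993 exon bases in the table and 6016 in its longest coding GENCODE transcript, and with such transcript lengths its mock level was 88.3 RPKM in place of 26.6 RPKM, above SPTB at 55.6 RPKM. With those lengths GYPB also stood higher, at 32.5 RPKM, and above ANK1 at 25.6 RPKM.

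**Figure D1:**
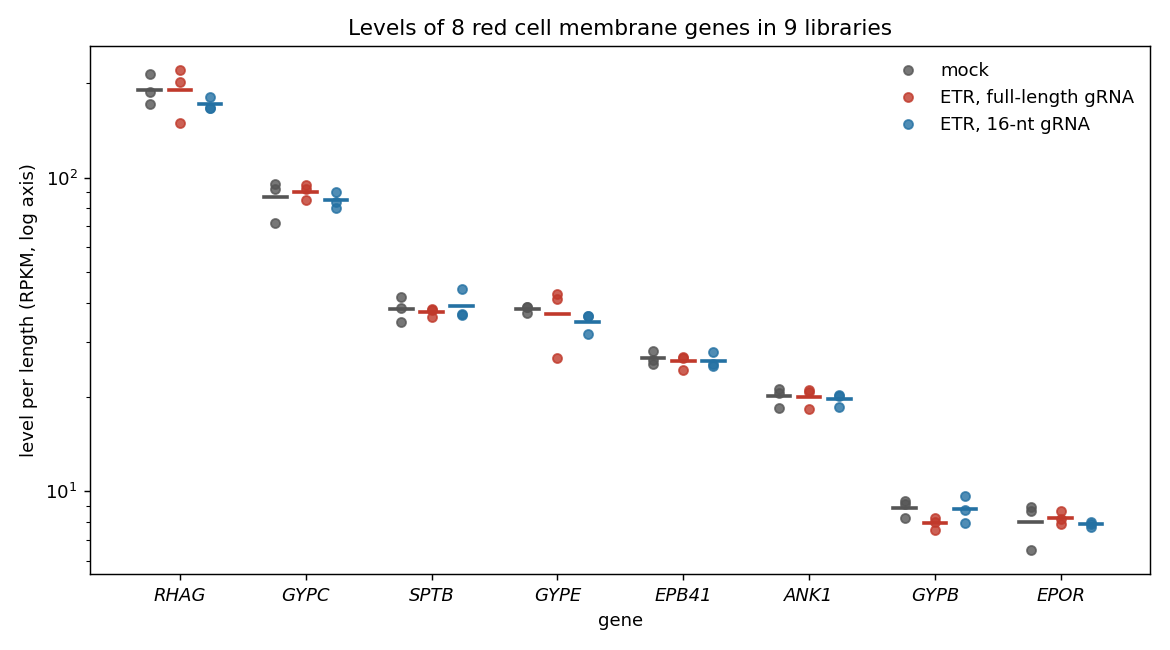
Levels per length (RPKM, logarithmic axis) of the 8 genes, ordered by their mean over 9 libraries. Points are single libraries, 3 per group, and short lines are group means; RHAG lies highest in each group, and the 3 groups of a gene lie close together compared with the distance from RHAG to EPOR.

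None of the 8 genes was called in any comparison by edgeR's quasi-likelihood test at an adjusted p under 0.05. With the full-length gRNA against mock, 0 of 8 were called, beside 0.00657% of the 15213 tested genes, which was B2M alone. The same share, again B2M alone, was called with the 16-nt gRNA against mock, with the 16-nt against the full-length gRNA, and with both ETR groups together against mock, and 0 of 8 genes in each. At an unadjusted p under 0.05 the genes also numbered 0 in each comparison, by edgeR and by DESeq2, where edgeR gave 2.86%, 2.48%, 0.927% and 3.44% of all tested genes. DESeq2 also called 0 of the 8 in each comparison. B2M, in contrast, fell by 3.84 on the log2 scale with the full-length gRNA (SE 0.12, edgeR adjusted p = 3.5e-11) and fell by 2.85 with the 16-nt gRNA (SE 0.11, edgeR adjusted p = 1.08e-09). A comparison that misses the threshold does not show equal levels, and the 95% confidence intervals give what the data allow. Across the 8 genes these reached from a log2 fold change of -0.39 to 0.28 with the full-length gRNA and from -0.42 to 0.24 with the 16-nt gRNA, each against mock. The lowest bounds correspond to a fall of 1.31-fold and of 1.34-fold. Against mock, 6 of 8 genes lay lower with the full-length gRNA and 7 of 8 with the 16-nt gRNA, with median log2 fold changes of -0.020 and -0.031, beside 0.00021 and 0.0019 over all tested genes. Over all tested genes 49.9% lay lower with the full-length and 49.4% with the 16-nt gRNA. These 2 comparisons share the mock libraries. Single libraries moved both medians: the full-length median was 0.031 without full-length replicate 3 and -0.070 without mock replicate 3, and the 16-nt median was 0.00096 without mock replicate 2 and -0.12 without mock replicate 3. Fitted together, both ETR groups had 6 of 8 genes lower, beside 49.9% of all tested genes. The median of the 8 genes was then -0.025, beside 0.00029 over all tested genes. It was 0.0039 without mock replicate 1 and -0.085 without mock replicate 3.

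**Figure D2:**
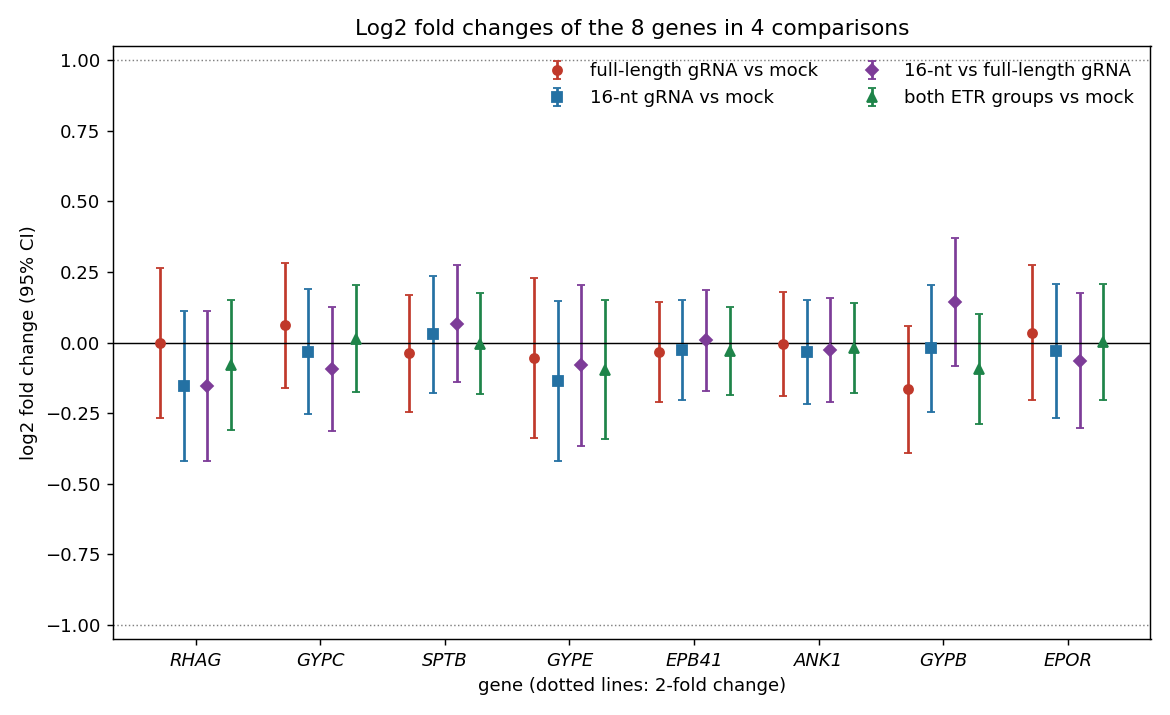
Log2 fold changes of the 8 genes (vertical axis, with 95% confidence intervals from edgeR) in 4 comparisons, with dotted lines at a 2-fold change. Each interval includes 0, and none reaches a log2 fold change of -0.5 or 0.5.

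GYPB encodes glycophorin B, which carries the S and s blood group antigens. The deposited counts of GYPB were low, at 391, 567 and 477 in mock, 435, 455 and 342 in the full-length group and 449, 530 and 389 in the 16-nt group. Scaled, it stood at 15.7, 17.7 and 17.4 CPM in mock, 15.3, 15.6 and 14.4 CPM in the full-length group and 18.5, 16.6 and 15.1 CPM in the 16-nt group. All 3 full-length libraries thus lay under all 3 mock libraries, but only by the step from 15.650 to 15.641 CPM. The 16-nt libraries overlapped both groups. GYPB was the only one of the 8 genes with such a separation in that comparison, beside 3.52% of tested genes that were lower without overlap. Between the gRNAs, and for both ETR groups against mock, 0 of 8 genes were separated in either direction, beside 5.58% and 1.96% of tested genes. Its log2 fold change was -0.17 (SE 0.11, 95% CI -0.39 to 0.060, edgeR adjusted p = 0.992) with the full-length gRNA and -0.021 (SE 0.11, 95% CI -0.24 to 0.20) with the 16-nt gRNA, the latter turning to 0.015 without mock replicate 2 and to 0.047 without 16-nt replicate 3. The direct difference of the gRNAs, 0.14 (SE 0.11, 95% CI -0.081 to 0.37), did not pass the test either. At a mean of 448 counts, counting error alone is 4.72% of a GYPB value, against a spread of 8.45% over the 9 libraries.

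GYPE, a glycophorin gene whose protein product is little characterised, varied most of the 8 genes over the 9 libraries, with a coefficient of variation of 13.3%. It stood at 77.5, 77.9 and 74.5 CPM in mock, 82.2, 85.4 and 53.3 CPM in the full-length group and 72.8, 72.9 and 63.5 CPM in the 16-nt group. The 16-nt libraries all lay under the mock libraries, and GYPE was the only one of the 8 genes lower without overlap in that comparison, beside 4.80% of tested genes. In the full-length group, replicates 1 and 2 lay above every mock library and replicate 3 below every other library. The log2 fold changes were -0.055 (SE 0.13, 95% CI -0.34 to 0.23) with the full-length gRNA and -0.14 (SE 0.13, 95% CI -0.42 to 0.15, edgeR adjusted p = 0.978) with the 16-nt gRNA. Without full-length replicate 3 the first value was 0.13 and the direction turned, and without both ETR replicate 3 libraries the second was -0.073. The 16-nt against the full-length gRNA gave -0.081 (SE 0.13, 95% CI -0.37 to 0.20). It was -0.27 without full-length replicate 3 (unadjusted p under 0.05, edgeR adjusted p = 0.948) and -0.20 without both ETR replicate 3 libraries (unadjusted p under 0.05, edgeR adjusted p = 1), but 0.039 without full-length replicate 2, -0.00040 without full-length replicate 1 and -0.018 without 16-nt replicate 3. Within a library GYPE exceeded GYPB 4.30 ± 0.582-fold per length (SD, n = 9; 3.52 to 5.19), and with the lengths of the longest coding transcripts 1.40-fold. The 2 copies did not move together closely over the 9 libraries (Pearson r = 0.41, Spearman rho = 0.20, as a description over libraries that share their preparation). Without full-length replicate 3 the Pearson r of GYPB and GYPE was -0.037.

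GYPC encodes glycophorins C and D, the membrane anchor of protein 4.1 and carrier of the Gerbich antigens. It stood at 333, 345 and 260 CPM in mock, 341, 332 and 306 CPM in the full-length group and 324, 290 and 303 CPM in the 16-nt group. Mock replicate 3 was the lowest library, under all 6 ETR libraries, and the groups overlapped. The log2 fold changes were 0.061 (SE 0.10, 95% CI -0.16 to 0.28) with the full-length gRNA and -0.033 (SE 0.10, 95% CI -0.25 to 0.19) with the 16-nt gRNA. Without mock replicate 3 they were -0.057 and -0.15, so the sign of the first rested on that library, and the second turned to 0.014, 0.043 and 0.0041 without mock replicate 1, mock replicate 2 and 16-nt replicate 2.

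RHAG encodes a membrane channel-like protein that the Rh antigens need to reach the surface. It stood at 563, 451 and 493 CPM in mock, 581, 530 and 394 CPM in the full-length group and 439, 476 and 438 CPM in the 16-nt group. Full-length replicate 3 was the lowest and full-length replicate 1 the highest of all libraries, so this group spanned the other groups. The log2 fold change was -0.0019 (SE 0.12, 95% CI -0.27 to 0.26) with the full-length gRNA and -0.15 (SE 0.12, 95% CI -0.42 to 0.11, edgeR adjusted p = 0.978) with the 16-nt gRNA. The 16-nt against the full-length gRNA gave -0.15 (SE 0.12, 95% CI -0.42 to 0.11). Without full-length replicate 3 this difference was -0.30, with an unadjusted p under 0.05 and an edgeR adjusted p = 0.948, and that of RHAG with the full-length gRNA against mock was 0.145, as it was 0.087 without mock replicate 1. The difference between the gRNAs shrank to -0.039 without full-length replicate 1 and to -0.11 without full-length replicate 2, so its size rested on single full-length libraries. RHCE, which encodes a partner Rh protein, had a much lower level, and RHAG exceeded it 45.2 ± 7.05-fold per length (SD, n = 9). RHCE and RHD are near-identical copies, so RHCE counts are uncertain.

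EPOR was even across the ETR libraries, at 25.04, 24.1 and 26.5 CPM in the full-length group and 24.6, 23.7 and 24.1 CPM in the 16-nt group. Mock libraries stood at 26.6, 27.3 and 19.95 CPM, with replicate 3 the lowest of all 9 libraries and replicate 2 the highest. The mock group therefore enclosed both ETR groups. The log2 fold changes were 0.035 (SE 0.11, 95% CI -0.20 to 0.27) and -0.029 (SE 0.11, 95% CI -0.27 to 0.21) with the full-length and 16-nt gRNA, and -0.097 and -0.16 without mock replicate 3. Without full-length replicate 3 the first value was -0.0025, and the second was 0.026 without mock replicate 1 and 0.054 without mock replicate 2.

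The 3 skeleton genes varied least of the 8 from library to library. EPB41, which encodes protein 4.1R, ranged from 488 to 559 CPM over the 9 libraries, a coefficient of variation of 4.70%. ANK1, which encodes the erythroid ankyrin, ranged from 197 to 228 CPM (5.78%), and SPTB, the erythroid beta spectrin, from 514 to 652 CPM (7.71%). The highest SPTB library was 16-nt replicate 1 and the lowest mock replicate 3, and in each of these genes all groups overlapped. Against mock, log2 fold changes were -0.037 (SE 0.10) for SPTB, -0.0066 (SE 0.086) for ANK1 and -0.034 (SE 0.084) for EPB41 with the full-length gRNA. With the 16-nt gRNA they were 0.029 (SE 0.10), -0.032 (SE 0.086) and -0.026 (SE 0.084). SPTB with the 16-nt gRNA turned to -0.038 without mock replicate 3 and to -0.068 without 16-nt replicate 1, and with the full-length gRNA it turned to 0.029 without mock replicate 2. For ANK1 and EPB41 some libraries left out also turned a sign, at values no larger than 0.054.

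The genes differed in which library was lowest. Full-length replicate 3 was the lowest of the 9 libraries for 5 of the 8 genes (RHAG, GYPE, EPB41, ANK1 and GYPB), as it was for 18.4% of tested genes. Mock replicate 3 was the lowest for the other 3 (GYPC, SPTB and EPOR), as it was for 18.1% of tested genes. GYPE and RHAG moved most alike in the first set, with r = 0.81 (rho 0.83), and r = 0.71 without full-length replicate 3. GYPC and EPOR moved most alike of all 28 pairs, with r = 0.82 (rho 0.85). EPB41 and EPOR moved apart, with r = -0.65 (rho -0.57). The median over the 28 pairs was 0.34, and these values describe 9 libraries that fall in part by library and not by group. The part of library quality in them was not tested. Over all tested genes within the same range of CPM, 7746 in number, the median coefficient of variation was 7.69%, beside 8.64% for the 8 genes.

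**Figure D3:**
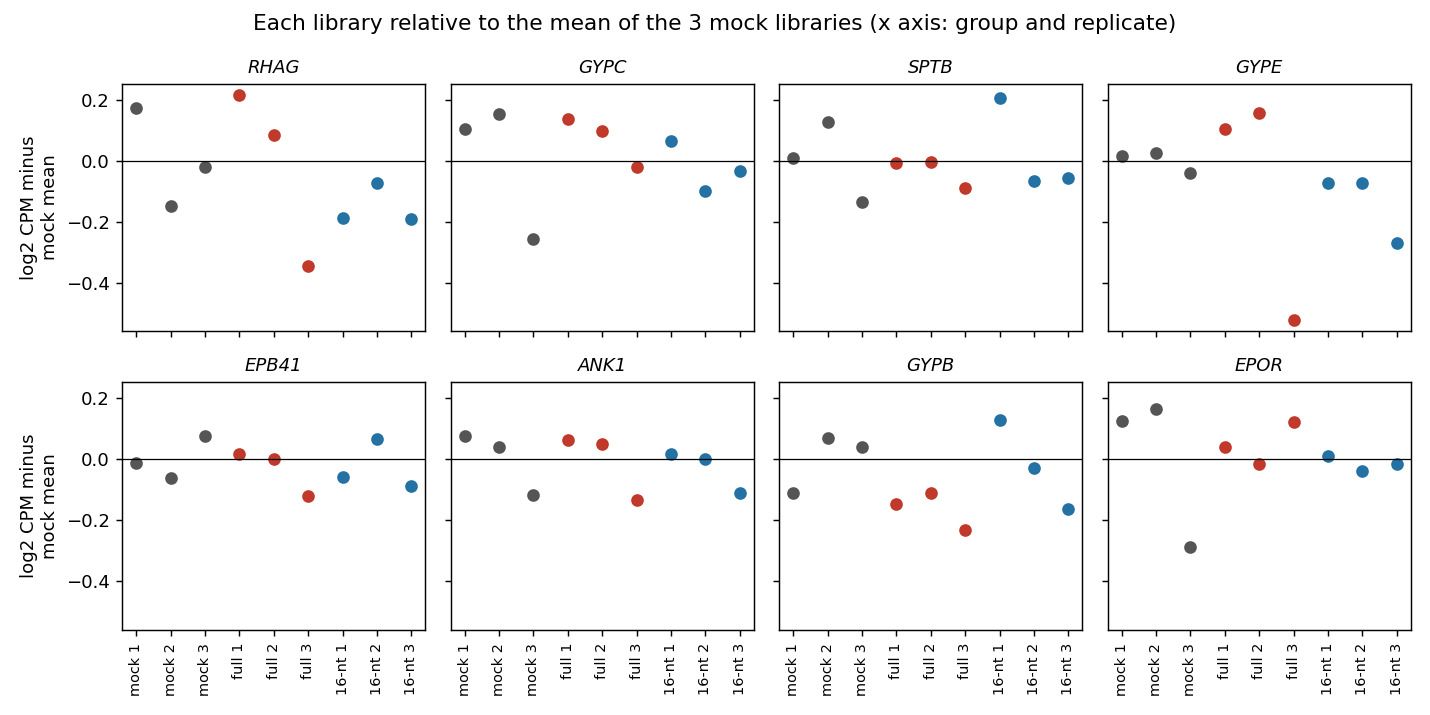
Log2 CPM of each gene in each library minus the mean of the 3 mock libraries (vertical axis), by group and replicate (horizontal axis). GYPE and RHAG are lowest in full-length replicate 3, and GYPC and EPOR in mock replicate 3.

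The tested genes whose log2 CPM followed each gene most closely over the 9 libraries, among 11670 compared, were taken by Pearson r. They were PHF23 (r = 0.974) and F11R (0.970) for GYPB, YIF1B (0.988) and WDR18 (0.984) for GYPC, and WASHC5 (0.975) and SCD (0.974) for GYPE. For RHAG they were RAMAC (0.976) and OAT (0.975), for SPTB IRF2BP1 (0.981) and GNAS (0.974), and for ANK1 AGO2 (0.989) and LRRC58 (0.971). XRN1 (0.983) and CCDC88A (0.977) were nearest to EPB41, and SLC22A18 (0.968) and TOLLIP (0.963) to EPOR. None of these genes is one of the 8, and so many comparisons over 9 libraries give high values readily.

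Among partners and paralogs, SPTB stood above SPTBN1, the broadly expressed beta spectrin, in level per length. It exceeded SPTBN1 1.53 ± 0.118-fold (SD, n = 9), and 1.23-fold with transcript lengths in place of the table's lengths. SPTB exons overlap PLEKHG3 over 3408 of 14796 bases and the strand setting is not given, so SPTB counts and this lead are uncertain. SPTAN1, the broadly expressed alpha spectrin, stood at 6.77 ± 0.310 RPKM in mock (SD, n = 3). ANK1 exceeded ANK2, the only other ankyrin gene tested, 116 ± 23.9-fold (SD, n = 9). EPB41 did not lead its family, since EPB41L2 stood at 55.7 ± 6.44 RPKM in mock, and EPB41 reached 0.469 ± 0.0302 of it (SD, n = 9), or 0.673 with transcript lengths. EPB41 exceeded EPB41L5 8.93 ± 0.278-fold (SD, n = 9), and 21.4-fold with transcript lengths.

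**Figure D4:**
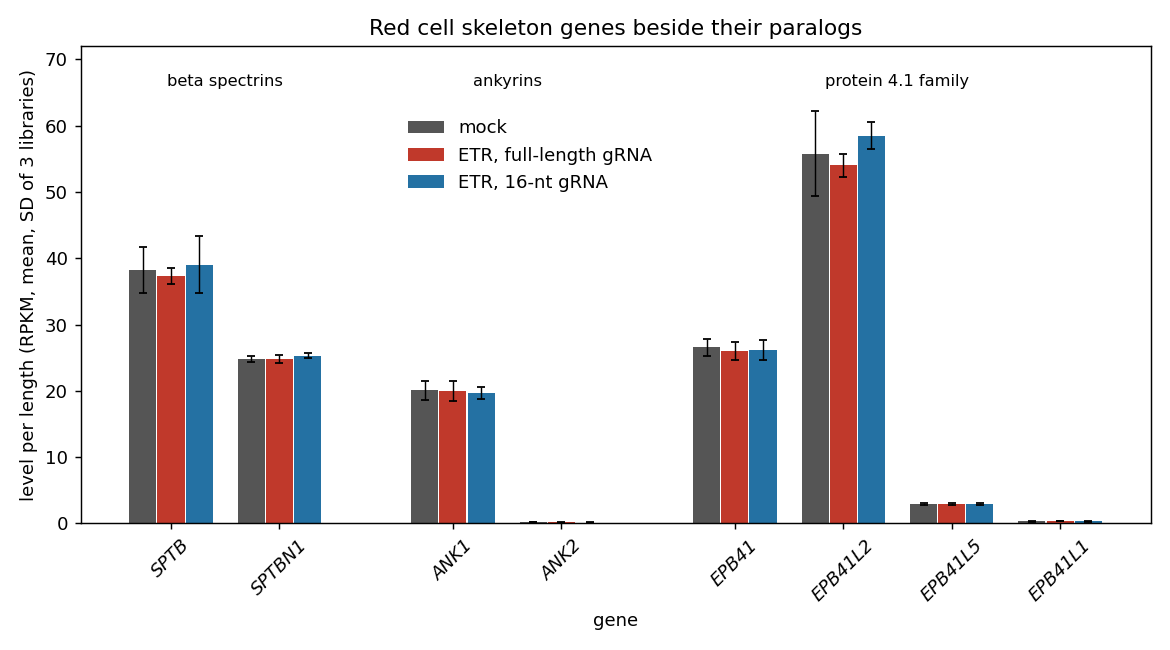
Levels per length (RPKM, bars are means of 3 libraries and error bars their SD) of SPTB, ANK1 and EPB41 beside related genes, by group. SPTB stands above SPTBN1 and ANK1 above ANK2, EPB41 stands under EPB41L2, and the error bars of the 3 groups overlap for SPTB, ANK1 and EPB41.

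Other genes of the membrane and of erythropoietin signalling were taken from 4 lists, and 0 of their tested members were called in any of the 4 comparisons. Of the membrane and skeleton list, 21 of 22 genes were tested and EPB42, which encodes protein 4.2, was not. With the full-length gRNA 6 were higher and 15 lower (median log2 fold change -0.016), and with the 16-nt gRNA 7 higher and 14 lower (-0.016). Over all tested genes, 49.9% were lower with the full-length and 49.4% with the 16-nt gRNA, with medians of 0.00021 and 0.0019. These shares also stand beside the counts of the other lists, and both comparisons use the same mock libraries. The members with the highest level in mock were ACTB at 625 ± 129 RPKM, FLOT1, a lipid raft protein, at 85.4 ± 3.15 RPKM, and the glucose transporter SLC2A1 at 77.3 ± 14.7 RPKM (SD, n = 3). The mechanosensitive channel PIEZO1 had 0.12 (SE 0.083) and TPM3, a tropomyosin, -0.11 (SE 0.093) with the full-length gRNA, the smallest p of the list. With the 16-nt gRNA PIEZO1 had 0.11 (SE 0.083), and between the gRNAs TPM3 had 0.17 (SE 0.093) and SLC2A1 -0.11 (SE 0.13).

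Of the blood group carriers, 16 of 20 were tested, with 6 higher and 10 lower with either gRNA (medians -0.037 with the full-length and -0.023 with the 16-nt gRNA). BSG, the Ok antigen, stood at 301 ± 27.4 RPKM in mock, ICAM4, the LW antigen, at 34.8 ± 3.75 RPKM and XK, the partner of Kell, at 29.1 ± 3.30 RPKM (SD, n = 3). SMIM1, which carries the Vel antigen, had log2 fold changes of 0.31 (SE 0.20) and 0.35 (SE 0.20) with the full-length and 16-nt gRNA, from 10.6 ± 2.99 CPM in mock to 13.2 ± 3.06 and 13.6 ± 2.43 CPM (SD, n = 3), so the groups' SDs overlapped. CD59, a complement inhibitor, had -0.12 (SE 0.072) with the full-length gRNA and CD47 -0.25 (SE 0.14) with the 16-nt gRNA. Between the gRNAs, CD47 had -0.20 (SE 0.14) and ACHE 0.13 (SE 0.14), and with both ETR groups together B3GALNT1, a globoside synthase, had -0.37 (SE 0.21), at 2.22 ± 0.288 CPM in mock (SD, n = 3).

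Of the genes of erythropoietin receptor signalling, 18 of 20 were tested, and the hormone gene EPO was not. With the full-length gRNA 8 were higher and 10 lower (median -0.016), and with the 16-nt gRNA 12 higher and 6 lower (0.016). PIM1, a survival kinase induced by STAT5, stood at 1227 ± 79.4 RPKM in mock, the adaptor CRKL at 150 ± 4.16 RPKM and BCL2L1, an anti-apoptotic gene, at 84.9 ± 6.08 RPKM (SD, n = 3). JAK2, the kinase bound to the receptor, had log2 fold changes of -0.17 (SE 0.086) with the full-length and -0.16 (SE 0.086) with the 16-nt gRNA. For both ETR groups together it had -0.16 (SE 0.074, unadjusted p = 0.0436, edgeR adjusted p = 0.928). PIK3R1, a phosphoinositide kinase subunit, had -0.19 (SE 0.11) and -0.17 (SE 0.11). Between the gRNAs, BCL2L1 had 0.080 (SE 0.081) and IRS2 0.097 (SE 0.11). Of the broadly expressed paralogs 9 of 15 were tested, with 5 higher and 4 lower with either gRNA (medians 0.014 and 0.027). ANK2 had -0.22 (SE 0.17) with the full-length and -0.45 (SE 0.18) with the 16-nt gRNA, the latter with an unadjusted p = 0.0223 and an edgeR adjusted p = 0.978, from 4.18 ± 0.358 CPM in mock to 3.05 ± 0.403 CPM (SD, n = 3). EPB41L1 had 0.18 (SE 0.18) with the full-length gRNA, SPTAN1 0.11 (SE 0.088) with the 16-nt gRNA and EPB41L2 0.11 (SE 0.091) between the gRNAs. SPTBN1 had a log2 fold change of -0.0029 (SE 0.075) with the full-length gRNA. JAK2 and ANK2 were the only ones of the 64 tested members of the 4 lists with an unadjusted edgeR p under 0.05 in any comparison. Over all tested genes, 2.86% had such a p with the full-length and 2.48% with the 16-nt gRNA against mock. Between the gRNAs it was 0.927%, and for both ETR groups against mock 3.44%.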

How the data were processed

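RNA of 9 libraries of K-562 cells was measured, 3 per group, with groups and replicate numbers from the sample titles. The authors deposited raw read counts per gene symbol, without normalization, and the gene length in bases. The submitters' processing notes name STAR 2.7.6a and GRCh38, featureCounts from Subread 2.0.1, Trim Galore 0.6.6 with FastQC 0.11.9, and also bcl2fastq 2.20 and DESeq2 1.30.0. Which annotation release, strand setting and rule for multi-mapping reads were used is not given in the sources used here. The table had 0 sample columns without a label, and its lengths equalled the merged exons in all but 0 of 59653 rows.

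Counts were fitted with edgeR 4.0.16 in R 4.3.3 (quasi-likelihood F test, two-sided, TMM scaling, filterByExpr with a minimum count of 10, 1 fit of 9 libraries with a term per group). Benjamini-Hochberg adjustment covered 15213 genes, with calls at an adjusted p under 0.05. Confidence intervals and SE come from that fit. The fit of both ETR groups averaged their terms. CPM and RPKM were computed here from the deposited counts. Correlations used log2 CPM with a prior count of 2, and likeness was computed for genes averaging 1 or more on that scale. DESeq2 1.42.0, other scaling and filters, a replicate block and libraries left out were tried. Each library counted once, since no pair differed by sampling noise alone (chi-square per degree of freedom 3.03 or more over all pairs). The script was tested on simulated data. Start sites and upstream sequences are RefSeq's (GRCh38.p14) and transcripts GENCODE's release 29.

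The genes and lists were chosen with earlier results of these data known. Named were the 8 genes, B2M, the 2 genes most like each, and per list in every comparison the 2 lowest p-values, and the 3 highest in mock. Related genes named beside SPTB, ANK1, EPB41 and RHAG for their levels (RHCE, EPB41L5), those named as at 0 or not tested, and overlapping genes were added after values were seen. Some genes that the rule names are not reported here.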

Additional observations from a re-analysis of the deposited data

How the results depend on the processing

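Of the 8 genes, 0 were called in each of the 4 comparisons under every alternative run (RLE size factors, DESeq2, no filter, a filter of 1 CPM in 3 libraries, a replicate block, each library left out and both ETR replicate 3 libraries left out), and so were 0 of the list genes. Directions were less stable. Log2 fold changes with a turned sign ranged, over libraries left out in turn, for the full-length gRNA against mock over GYPC -0.057 to 0.14, GYPE -0.18 to 0.13, RHAG -0.12 to 0.145, SPTB -0.10 to 0.029, ANK1 -0.065 to 0.054, EPB41 -0.065 to 0.0086 and EPOR -0.10 to 0.12, for the 16-nt gRNA against mock over GYPB -0.10 to 0.047, GYPC -0.15 to 0.043, SPTB -0.068 to 0.095, ANK1 -0.090 to 0.0062, EPB41 -0.075 to 0.011 and EPOR -0.16 to 0.054, for the 16-nt against the full-length gRNA over GYPE -0.27 to 0.039, SPTB -0.030 to 0.11, ANK1 -0.087 to 0.014 and EPB41 -0.041 to 0.038, and for both ETR groups against mock over GYPC -0.10 to 0.090, RHAG -0.15 to 0.011, SPTB -0.071 to 0.062, ANK1 -0.077 to 0.018, EPB41 -0.061 to 0.0074 and EPOR -0.13 to 0.086. Without both ETR replicate 3 libraries they were GYPE 0.13, RHAG 0.145, ANK1 0.054, EPB41 0.0084, EPOR -0.0026 for the full-length gRNA, GYPB 0.047, ANK1 0.0065, EPB41 0.0043 for the 16-nt gRNA, EPB41 -0.0042 between the gRNAs, and GYPE 0.028, RHAG 0.0055, SPTB 0.031, ANK1 0.030, EPB41 0.0063, EPOR -0.016 for both groups. RHAG with the full-length gRNA was 0.0017 with RLE size factors and 0.0036 with the 1 CPM filter, and for both groups SPTB was 0.0022 with that filter and EPOR -0.00025 without a filter. Over all genes, 1 was called in each comparison, but 6, 13, 4 and 27 without a filter in the order given, and 0 to 1 between the gRNAs with 1 library left out (0 without full-length replicate 2). The replicate block turned no sign and called 0 of the 8 genes and 1 of all genes in each comparison. What the numbers mark is not stated. Same-numbered libraries had correlated deviations over 0.1 in 7 of 9 pairs (-0.448 to 0.675), every pair of replicates 1 and 3 among them, and 6 of 9 libraries correlated best with their own number, a hint from the data that numbers may be shared in part. Chi-square per degree of freedom was mixed. Mock replicate 2 differed from 16-nt replicate 1 by 3.25 but from 16-nt replicate 2 by 28.4. Mock replicate 3 differed from 16-nt replicate 2 by 9.5 but from 16-nt replicate 3 by 23.5. The pairs of mock with full-length replicate 1 (4.51) and of full-length with 16-nt replicate 3 (3.03) went with the numbers. Since not every pair passed 0.1, same-numbered libraries were not used as pairs. Mock levels with the lengths of the longest coding transcripts, a choice made after seeing the data, were 249 RPKM for RHAG, 173 for GYPC, 88.3 for EPB41, 55.6 for SPTB, 45.5 for GYPE, 32.5 for GYPB, 25.6 for ANK1 and 10.2 for EPOR, where the table's lengths gave 191, 86.6, 26.6, 38.3, 38.2, 8.87, 20.1 and 8.0003. Mock levels moved by less than 1 SD with total counts or RLE size factors as the scale. Counting error, between 0.801% (SPTB) and 4.72% (GYPB), lay below the spread over libraries.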
